A study of Mus musculus with 31 samples.

Results

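The NRF2 antioxidant response genes described here are 10 genes, Nfe2l2, Gclc, Gclm, Gsr, Txnrd1, Srxn1, Nqo1, Cbr3, Ephx1 and Abcc4, out of the 18147 genes that the arrays could name. They were chosen by symbol, as the gene of the transcription factor NRF2 (Nfe2l2) and 9 genes widely used as its targets. Where a gene had several probe sets the brightest on average stood for it, and Nfe2l2 was read from both of its own.

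The livers came from females of 4 inbred mouse strains, namely WSB/EiJ, SM/J, NZW/LacJ and MA/MyJ, which entered the study at 8 to 10 weeks of age, and RNA was taken from the left lobe. The treated animals received PF-04287881, a candidate antibiotic known by its code name, at 600 mg/kg by gavage each day for 7 days, and the vehicle animals received sterile water. Livers were collected 24 hours after the final dose. There were 31 arrays, from 15 treated and 16 vehicle animals, 4 in each of the 8 groups of strain and treatment except 3 in treated WSB/EiJ, where 1 animal died of a gavage error. The submitters coded MA/MyJ and NZW/LacJ for vacuolation of Kupffer cells, the macrophages of the liver, and NZW/LacJ also for single cell necrosis. Each strain is inbred, so the animals of a group share 1 genotype and the spread within a group is that between animals. The question put to these genes was whether the drug moved the oxidative stress response of the liver, and whether it did so alike in the 4 strains.

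NRF2 is held in the cytosol by its adaptor KEAP1, which hands it to a ubiquitin ligase for degradation by the proteasome. Oxidants and electrophiles modify KEAP1, NRF2 then accumulates, pairs with a small MAF protein in the nucleus and binds antioxidant response elements in the DNA of its targets. These targets make glutathione, reduce glutathione and thioredoxin, detoxify quinones, carbonyls and epoxides, and export conjugates. In liver they are best known for the defence against reactive drug metabolites. Since NRF2 is controlled mainly through its protein, the level of its messenger RNA is not a measure of its activity.

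The core of an antioxidant response element is commonly written TGACNNNGC, and matches to it are shown because they are the sequence feature that the pathway is defined by. RefSeq promoter windows of GRCm38.p6, from 250 bases before to 50 bases after a transcript start, were searched for these letters on both strands. Windows were given for 8 of the 10 genes, all but Gclc and Gsr, and some genes had more than 1 start, so that 11 windows were searched. A match was found in 6 windows of 5 genes. Of all 32851 windows 12.4% held a match, and of all 27025 genes 14.0% had one in at least 1 window. Each match is printed 5′ to 3′ in the direction in which it reads TGACNNNGC, in capitals, with 10 bases on either side.
Nfe2l2, chr2:75704885-75704913, minus strand: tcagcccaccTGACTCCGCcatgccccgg
Gclm, chr3:122245413-122245441, minus strand: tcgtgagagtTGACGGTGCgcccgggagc
Txnrd1, chr10:82859104-82859132, minus strand: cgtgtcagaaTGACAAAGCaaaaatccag
Srxn1, chr2:152105542-152105570, minus strand: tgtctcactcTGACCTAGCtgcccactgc
Abcc4, first start, chr14:118706226-118706254, plus strand: cggcccgcccTGACCCCGCctctcggggc
Abcc4, second start, chr14:118676936-118676964, minus strand: aataatctcgTGACTCTGCcgtggtggat
These letters were not in the windows of Nqo1, Cbr3 and Ephx1. A match is a description of the sequence and not a site shown to be bound in these livers.

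Values are log2 intensities per probe set. Genes were tested when they exceeded 6.49, the median of all values, in at least 3 arrays, which left 12890 genes and all 10 members. Cbr3 exceeded it in 10 arrays and Abcc4 in 23, the other members in all 31. Cbr3 passed mainly through treated arrays, so counts that include it lean toward a change. Differences are PF-04287881 minus vehicle on the log2 scale, ± 1 standard error of the limma model, with p-values adjusted by Benjamini-Hochberg over the 12890 genes. A change was called at an adjusted p under 0.05.

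One array went against its label. On a scale of 200 probe sets private to WSB/EiJ, with the other strains centred on 0 and WSB/EiJ on 1, the array labelled WSB/EiJ treated animal 3 lay at -0.00983. The remaining WSB/EiJ arrays ranged over 0.890 to 1.06. On the NZW/LacJ scale it lay at 1.00, within the 0.806 to 1.02 of the arrays labelled NZW/LacJ. On a scale that separates treated (1) from vehicle (0) NZW/LacJ livers it lay at 0.0681, beside -0.0499 to 0.0624 for NZW/LacJ vehicle. Of the 10 genes, 6 lay there within the range of NZW/LacJ vehicle, among them Abcc4 at 6.43, where the other treated WSB/EiJ animals had 8.82 and 9.33 and NZW/LacJ vehicle 5.80 to 6.49. The other 4 lay outside it, with Gclc at 12.29 (11.96 to 12.22) and Cbr3 at 6.36 (6.16 to 6.35) above, and Gsr at 10.75 (10.85 to 10.99) and Nqo1 at 7.712 (7.717 to 7.972) below. Results that rest on this array are therefore given with it, as labelled, and without it, which leaves 2 treated WSB/EiJ animals.

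**Figure D1:**
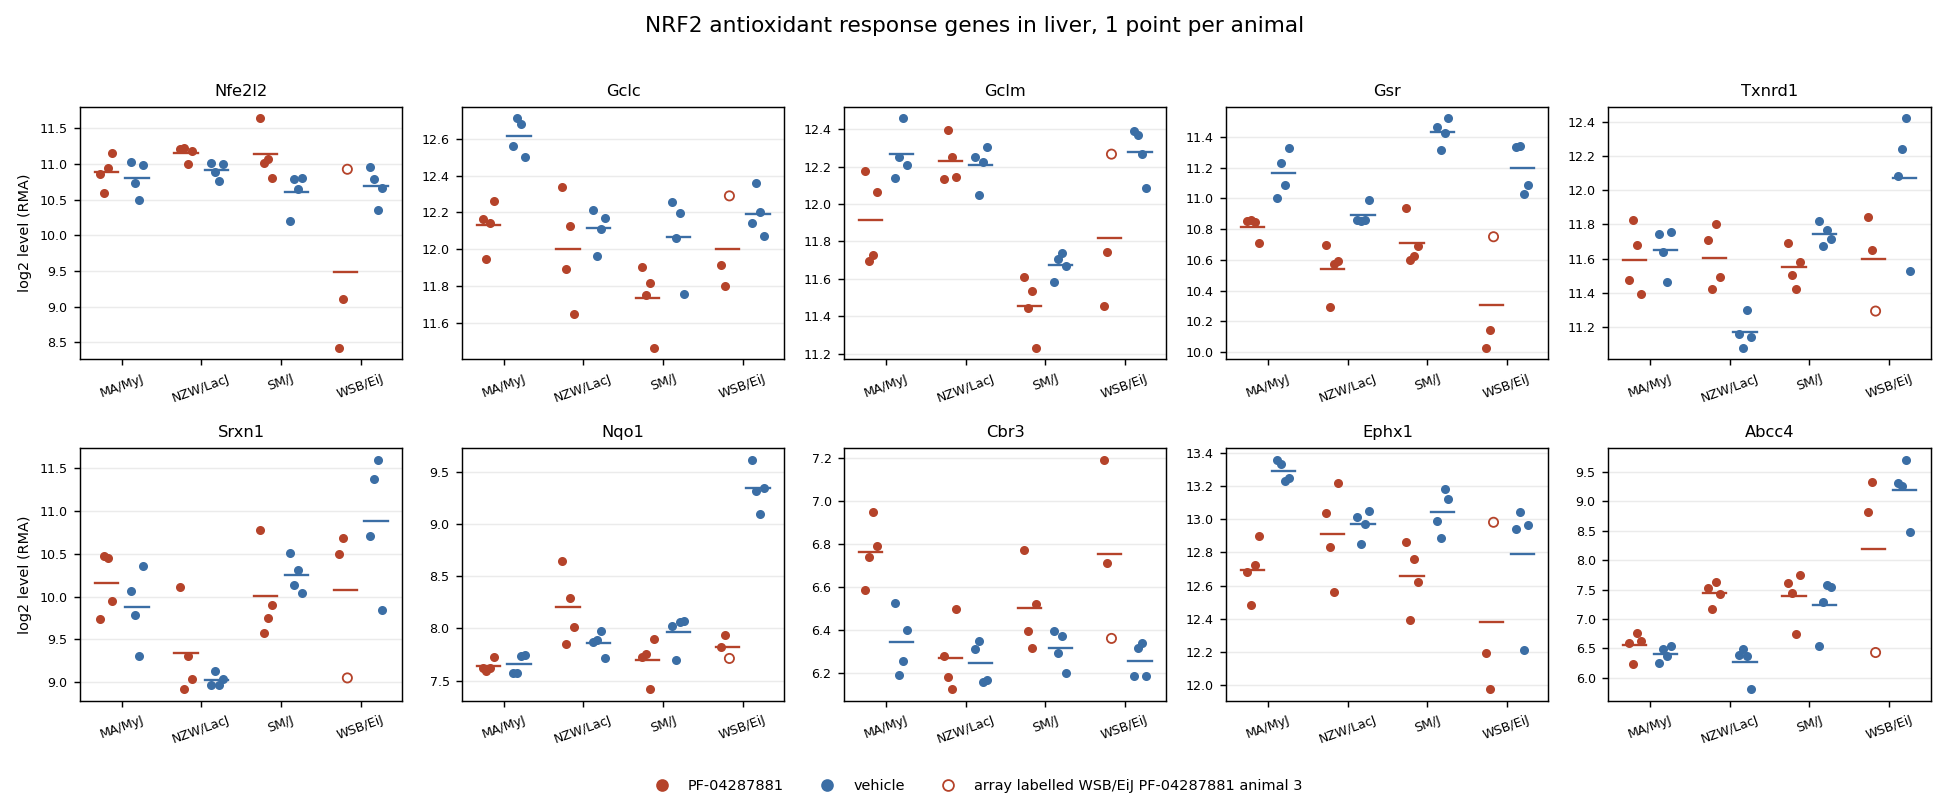
Log2 intensity of each of the 10 genes in every animal, with PF-04287881 left of vehicle in each strain, lines at the group means and the array labelled WSB/EiJ treated animal 3 as an open circle. Nqo1 and Abcc4 stood higher in WSB/EiJ vehicle livers than in any other vehicle livers, and Gsr was lower in treated than in vehicle animals of every strain.

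Every array was rich in the hepatocyte gene Alb, at 14.67 to 14.80. The treated livers also differed from vehicle livers in macrophage markers, which touches every comparison below. Of 17 tested macrophage markers, 12 rose in MA/MyJ, 11 in WSB/EiJ, 7 in NZW/LacJ and 1 in SM/J, and none fell. Of all tested genes, with all arrays kept, 3.17% rose in MA/MyJ, 6.91% in WSB/EiJ, 15.1% in NZW/LacJ and 1.6% in SM/J. The shares that fell were, in the same order, 0.978%, 12.4%, 6.4% and 0.993%. The mean level of the list was 9.32 to 10.39 in treated and 8.30 to 8.53 in vehicle MA/MyJ livers, and 8.92 to 10.62 in treated and 8.71 to 9.18 in vehicle NZW/LacJ livers. It was 8.89 to 9.53 in treated and 8.66 to 9.02 in vehicle SM/J livers, and 8.99 to 9.32 in treated and 7.73 to 8.31 in vehicle WSB/EiJ livers. The integrin Itgam was the 1 listed macrophage marker that exceeded 6.49 in no array. The mean over 12 hepatocyte markers kept a narrow range, at 13.58 to 13.91 in every array. Single markers did not all do so. Tat ranged from 11.76 to 14.23, Ass1 from 7.79 to 9.21 and Hnf4a from 12.86 to 13.86, and the others spanned less. The mean of 10 markers of sinusoidal endothelium was 8.06 to 8.68 in treated and 8.78 to 9.15 in vehicle SM/J livers, and overlapped between treated and vehicle livers of the other strains. The mean of 6 stellate cell markers was 8.68 to 9.96 in treated and 9.07 to 9.24 in vehicle NZW/LacJ livers. In WSB/EiJ it was 9.11 to 9.51 in treated livers, or 9.15 to 9.51 without the array in doubt, and 8.85 to 9.12 in vehicle livers. In MA/MyJ and SM/J treated and vehicle livers overlapped. Of 6 T and B cell markers on the array, Cd3e exceeded 6.49 in 31 arrays (7.54 to 8.46), and Cd3g and Cd2 in 0. Of 4 neutrophil markers, S100a9 did so in 28 arrays, and Cxcr2 and Mpo in 0. Of 5 bile duct markers, Krt19 did so in 30 arrays and Epcam in 24, and Krt7 and Cftr in 0. None of the 3, 1 and 3 tested markers of these lists was called in any strain with all arrays kept. In tissue RNA, fewer cells of a type and less RNA per cell cannot be told apart, and the part of these cells in the results below was not tested.

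The 2 probe sets of Nfe2l2 moved in opposite directions. The brighter, 1416543_at, fell in WSB/EiJ and was called in no other strain. It read 8.42, 9.11 and 10.93 in treated WSB/EiJ animals 1 to 3, and 10.96, 10.79, 10.35 and 10.67 in WSB/EiJ vehicle. Animals 1 and 2 lay below every other array of the study, and animal 3, the array in doubt, lay inside the vehicle range. The difference was -1.20 ± 0.32 (limma, adjusted p = 0.00980) with all arrays and -1.92 ± 0.21 (adjusted p = 2.40e-07) without animal 3. The call was lost without treated animal 1 (-0.67, adjusted p = 0.159) or animal 2 (-1.02, adjusted p = 0.0559).

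SM/J was the one strain in which all treated values of this probe set lay above all vehicle values. It read 11.65, 11.02, 11.07 and 10.81 in treated SM/J animals, against 10.20, 10.78, 10.64 and 10.80 in SM/J vehicle. The difference of 0.53 ± 0.30 was not called (adjusted p = 0.446), nor without the array in doubt (adjusted p = 0.0833). In MA/MyJ (0.08 ± 0.30) and NZW/LacJ (0.24 ± 0.30) the groups overlapped, with 95% intervals of -0.53 to 0.69 and -0.38 to 0.85. The effect differed between strains by an F test across strains (adjusted p = 0.0230, and 1.85e-06 without the array in doubt).

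The dimmer probe set of Nfe2l2, 1457117_at, rose in WSB/EiJ and fell in NZW/LacJ. It read 9.94, 9.68 and 10.26 in treated WSB/EiJ animals, against 8.18, 6.86, 9.27 and 7.52 in WSB/EiJ vehicle. All treated values lay above all vehicle values, by 2.00 ± 0.36 (adjusted p = 3.24e-04 over 24899 probe sets) and by 1.85 ± 0.41 without the array in doubt (adjusted p = 9.72e-04). In NZW/LacJ it read 8.49, 7.82, 8.83 and 8.38 in treated animals, against 10.20, 10.37, 9.76 and 9.87 in vehicle. There all treated values lay below all vehicle values, with a difference of -1.67 ± 0.33 (adjusted p = 7.04e-04).

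In MA/MyJ the same probe set read 10.21, 10.18, 9.87 and 9.47 in treated animals, against 8.96, 9.10, 9.13 and 8.10 in vehicle. The groups did not overlap, and the difference of 1.11 ± 0.33 missed the threshold with all arrays (adjusted p = 0.0534) and passed without the array in doubt (adjusted p = 0.0394). In SM/J treated and vehicle animals overlapped (-0.20 ± 0.33). The 4 effects differed by the F test (adjusted p = 3.25e-05). Which transcript or stretch of Nfe2l2 each probe set reads was not given in the sources used here, so the gene has no single direction in WSB/EiJ or NZW/LacJ.

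**Figure D2:**
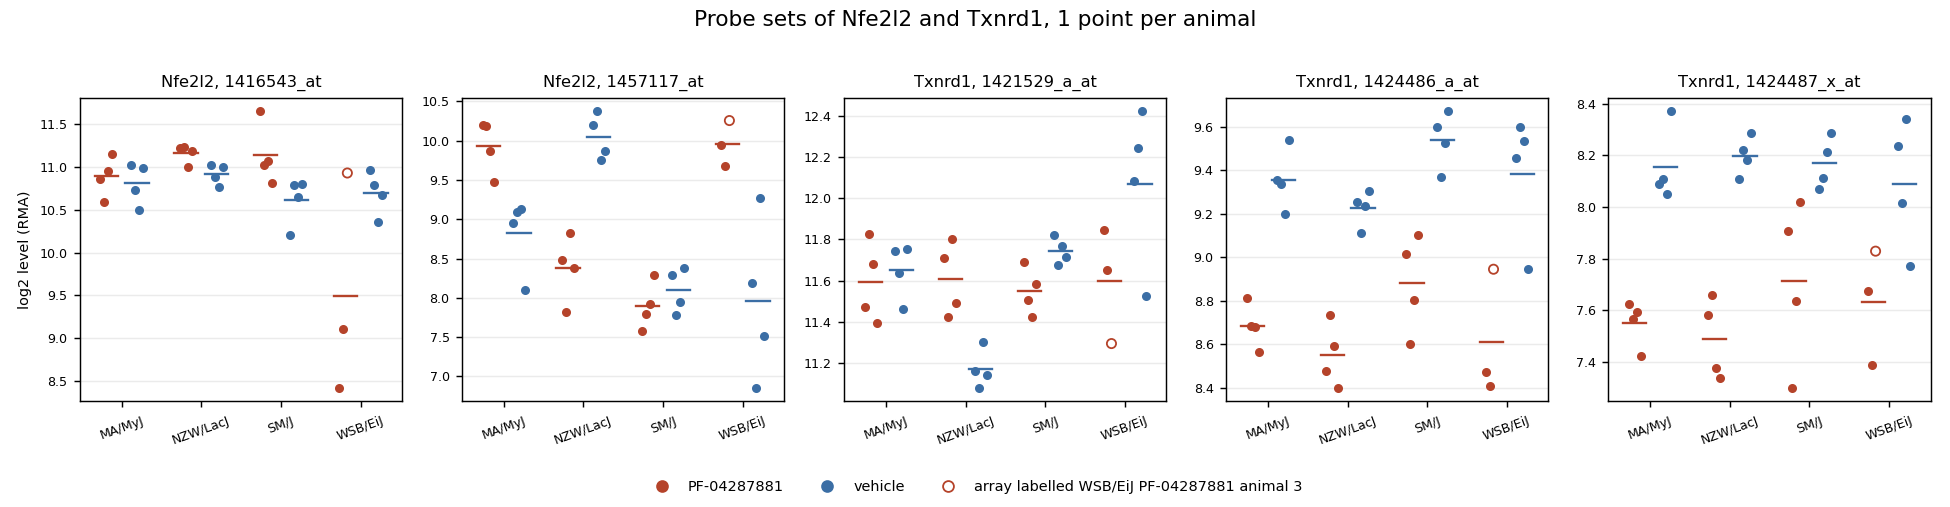
Log2 level of the 2 probe sets of Nfe2l2 and the 3 of Txnrd1 in every animal, with PF-04287881 left of vehicle in each strain, lines at the group means and the array in doubt as an open circle. In WSB/EiJ the treated animals lay below vehicle for 1416543_at apart from the open circle, and above vehicle for 1457117_at.

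The 3 glutathione genes each fell on average over the strains. Gsr, glutathione reductase, which regenerates reduced glutathione with NADPH, was lower in every treated animal than in every vehicle animal of its strain. It read 10.94, 10.60, 10.62 and 10.69 in treated SM/J animals, against 11.47, 11.31, 11.43 and 11.52 in SM/J vehicle. The difference was -0.72 ± 0.12 (limma, adjusted p = 0.00143).

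In WSB/EiJ, Gsr read 10.03, 10.14 and 10.75 in treated animals 1 to 3, against 11.34, 11.34, 11.03 and 11.09 in vehicle. Treated animals 1 and 2 lay below every vehicle animal. The array in doubt also did, but so did all NZW/LacJ vehicle livers (10.85 to 10.99). The difference was -0.89 ± 0.13 (adjusted p = 2.98e-05), and -1.11 ± 0.11 without that array (adjusted p = 6.17e-08). In NZW/LacJ, Gsr read 10.70, 10.29, 10.57 and 10.59 in treated animals and 10.86, 10.85, 10.86 and 10.99 in vehicle, a difference of -0.35 ± 0.12 (adjusted p = 0.0341). That call was lost without any 1 of 7 animals, at -0.37 to -0.27 with adjusted p up to 0.126, and with arrays shifted to 1 median (-0.31).

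Gsr in MA/MyJ read 10.85, 10.86, 10.85 and 10.71 in treated animals, against 11.00, 11.23, 11.09 and 11.33 in vehicle. The groups were again apart, and the difference of -0.35 ± 0.12 missed the threshold with all arrays (adjusted p = 0.0964). It passed without the array in doubt (adjusted p = 0.0217), where the standard error was 0.09. Averaged over the strains, Gsr fell (-0.58 ± 0.06, adjusted p = 2.05e-07). The second probe set of Gsr, 1421817_at, also fell in SM/J (-0.52 ± 0.11) and WSB/EiJ (-0.73 ± 0.12), but was not called in MA/MyJ (-0.13 ± 0.11) or NZW/LacJ (-0.12 ± 0.11), where treated and vehicle animals overlapped.

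Gclc and Gclm encode the catalytic and modifier subunits of glutamate-cysteine ligase, the enzyme of the first step of glutathione synthesis. Gclc read 12.17, 11.95, 12.14 and 12.26 in treated MA/MyJ animals, against 12.56, 12.71, 12.68 and 12.50 in vehicle. It fell there with no overlap (-0.48 ± 0.13, adjusted p = 0.0332). Leaving out any 1 of 6 animals ended the call (adjusted p up to 0.115), while leaving out the array in doubt did not (adjusted p = 0.0159).

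The other strains did not pass for Gclc, with differences of -0.33 ± 0.13 in SM/J, -0.19 ± 0.14 in WSB/EiJ and -0.11 ± 0.13 in NZW/LacJ. The average over strains was -0.28 ± 0.07 (adjusted p = 0.00320). The second probe set of Gclc, 1424296_at, was called lower in MA/MyJ (-0.62 ± 0.13, adjusted p = 0.00440) and in SM/J (-0.52 ± 0.13, adjusted p = 0.0265). In SM/J all of its treated values lay below all vehicle values.

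Gclm read 11.45, 11.74 and 12.27 in treated WSB/EiJ animals 1 to 3, against 12.39, 12.37, 12.27 and 12.09 in vehicle. Animals 1 and 2 lay below the vehicle range and animal 3 inside it. The difference was -0.46 ± 0.14 (adjusted p = 0.0226), and -0.68 ± 0.13 without animal 3 (adjusted p = 2.43e-04). The call with all arrays was lost without any 1 of 4 WSB/EiJ animals, at -0.43 to -0.27. Gclm was not called in SM/J (-0.22 ± 0.13), MA/MyJ (-0.35 ± 0.13) or NZW/LacJ (0.03 ± 0.13) with all arrays. MA/MyJ passed without the array in doubt (adjusted p = 0.0428), and the average over strains was -0.25 ± 0.07 (adjusted p = 0.00710). The second probe set of Gclm, 1439050_at, read 9.43, 9.39 and 10.89 in treated WSB/EiJ animals 1 to 3, against 10.56 to 10.82 in vehicle. Animal 3 lay above the vehicle range, and the difference was -0.83 ± 0.21 with it (adjusted p = 0.00723) and -1.32 ± 0.13 without it (adjusted p = 3.70e-08).

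Thioredoxin genes gave readings that depended on the probe set. Txnrd1 encodes thioredoxin reductase, which keeps thioredoxin reduced. Its brightest probe set, 1421529_a_at, read 11.71, 11.42, 11.80 and 11.49 in treated NZW/LacJ animals, against 11.16, 11.08, 11.30 and 11.14 in vehicle. It rose there by 0.43 ± 0.14 with no overlap (adjusted p = 0.0263), a call lost without any 1 of 5 animals.

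In WSB/EiJ the brightest Txnrd1 probe set read 11.84, 11.65 and 11.30 in treated animals, against 12.08, 12.24, 12.42 and 11.53 in vehicle. The difference of -0.47 ± 0.15 passed with all arrays (adjusted p = 0.0292). Without the array in doubt, the lowest of the 3, the difference was -0.32 ± 0.16 and did not pass (adjusted p = 0.134). In MA/MyJ (-0.05 ± 0.14) and SM/J (-0.19 ± 0.14) Txnrd1 was not called.

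The 2 dimmer probe sets of Txnrd1 fell instead, in NZW/LacJ too. The first, 1424486_a_at, read 8.48, 8.73, 8.59 and 8.40 in treated NZW/LacJ animals, against 9.25, 9.11, 9.24 and 9.30 in vehicle, a difference of -0.67 ± 0.13 (adjusted p = 5.42e-04). Its differences in WSB/EiJ (-0.77 ± 0.14), MA/MyJ (-0.67 ± 0.13) and SM/J (-0.66 ± 0.13) also passed. Apart from the array in doubt, every treated array lay below every vehicle array of its strain. The other, 1424487_x_at, was at -0.71 in NZW/LacJ, -0.60 in MA/MyJ and -0.46 in WSB/EiJ, all called, and at -0.46 in SM/J without passing (adjusted p = 0.0614). The gene therefore has no single direction in NZW/LacJ, and which transcripts the probe sets share was not given in the sources used here.

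Srxn1 encodes sulfiredoxin, which restores peroxiredoxins that were overoxidised. It was not called in any strain. Its differences were -0.80 ± 0.38 in WSB/EiJ, -0.25 ± 0.35 in SM/J, 0.32 ± 0.35 in NZW/LacJ and 0.28 ± 0.35 in MA/MyJ. Single animals spread widely, from 8.92 to 10.11 in treated NZW/LacJ and from 9.84 to 11.60 in WSB/EiJ vehicle. Without WSB/EiJ vehicle animal 4, the lowest of its group, the WSB/EiJ difference was -1.15 and passed (adjusted p = 0.0271), and without the array in doubt it was -0.29 ± 0.38 and did not.

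Nqo1, the quinone reductase most often used to report NRF2 activity, had the largest fall of the 10 genes, in WSB/EiJ, with each gene read from its brightest probe set and all arrays kept. It read 7.82, 7.94 and 7.71 in treated WSB/EiJ animals, against 9.62, 9.31, 9.10 and 9.35 in WSB/EiJ vehicle. The 2 groups were far apart, and the treated livers reached the 7.57 to 8.07 seen in vehicle livers of the other 3 strains. The difference was -1.52 ± 0.14 (limma, adjusted p = 2.10e-07), and -1.47 ± 0.16 without the array in doubt (adjusted p = 1.86e-07). It passed in every fit that left out 1 animal.

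NZW/LacJ showed the opposite sign for Nqo1. The treated animals read 8.64, 7.85, 8.29 and 8.01, against 7.87, 7.89, 7.97 and 7.72 in vehicle. Animals 1, 3 and 4 lay above the vehicle range and animal 2 inside it. The difference of 0.34 ± 0.13 missed the threshold (adjusted p = 0.0631), and passed without treated animal 2 (0.46, adjusted p = 0.0138) or animal 4 (0.40, adjusted p = 0.0487).

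Nqo1 did not pass in MA/MyJ or SM/J. In MA/MyJ it read 7.62, 7.59, 7.62 and 7.72 in treated and 7.57, 7.57, 7.74 and 7.75 in vehicle animals, with a difference of -0.02 (95% interval -0.29 to 0.25). In SM/J it read 7.73, 7.75, 7.42 and 7.90 in treated and 8.03, 7.70, 8.06 and 8.07 in vehicle animals, with a difference of -0.27 ± 0.13 (adjusted p = 0.351). The 4 effects differed by the F test (adjusted p = 2.01e-06). The WSB/EiJ effect lay below the mean effect of the other strains (-1.54 ± 0.16, adjusted p = 8.57e-07), and the NZW/LacJ effect 0.94 ± 0.15 above that of its others (adjusted p = 1.27e-04).

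Read from the brightest probe sets, Cbr3, a carbonyl reductase, was the one member that rose in WSB/EiJ. It read 7.19, 6.71 and 6.36 in treated WSB/EiJ animals, against 6.19, 6.32, 6.34 and 6.19 in vehicle. All 3 treated values lay above the vehicle values, the array in doubt by the least. The rise of 0.50 ± 0.14 (adjusted p = 0.0115) was lost without treated animal 1 (0.28, adjusted p = 0.174) and was 0.69 ± 0.13 without the array in doubt.

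Treated MA/MyJ animals read 6.59, 6.74, 6.95 and 6.79 for Cbr3, against 6.53, 6.19, 6.26 and 6.40 in vehicle. The groups were apart, with a difference of 0.42 ± 0.13 (adjusted p = 0.0545, and 0.0166 without the array in doubt). NZW/LacJ (0.03 ± 0.13) and SM/J (0.18 ± 0.13) were not called. Most vehicle arrays lay below 6.49, so these differences were read near the dim end of the scale.

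Ephx1, microsomal epoxide hydrolase, was among the brightest members, at 11.98 to 13.36 in every array. It read 12.68, 12.48, 12.72 and 12.90 in treated MA/MyJ animals, against 13.36, 13.33, 13.23 and 13.25 in vehicle. The groups did not overlap, and the difference of -0.60 ± 0.18 missed the threshold (adjusted p = 0.0521) and passed without the array in doubt (adjusted p = 0.0128). SM/J was also apart without passing (-0.39 ± 0.18, adjusted p = 0.303), and NZW/LacJ overlapped (-0.06 ± 0.18).

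In WSB/EiJ, Ephx1 read 12.19, 11.98 and 12.98 in treated animals, against 12.94, 13.04, 12.21 and 12.96 in vehicle. Vehicle animal 3 lay near treated animals 1 and 2, and the array in doubt lay near the other vehicle animals. The difference was -0.41 ± 0.19 with all arrays (adjusted p = 0.139), and it passed without the array in doubt (-0.70 ± 0.18, adjusted p = 0.00341) or without vehicle animal 3 (-0.60, adjusted p = 0.0162). The average over strains passed in both fits (-0.36 ± 0.09, adjusted p = 0.00449, and -0.44 ± 0.08 without the array in doubt).

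Abcc4, an exporter of conjugates and bile acids across the sinusoidal membrane of hepatocytes, rose in NZW/LacJ. It read 7.53, 7.17, 7.63 and 7.42 in treated NZW/LacJ animals, against 6.38, 6.49, 6.37 and 5.80 in vehicle. The groups did not overlap. The difference was 1.18 ± 0.38 (limma, adjusted p = 0.0274), and its adjusted p was 6.28e-04 without the array in doubt, which widened the spread of this gene. With that array kept, the call was lost without any 1 of 4 NZW/LacJ animals, at 1.02 to 1.18.

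Abcc4 in WSB/EiJ read 8.82, 9.33 and 6.43 in treated animals, against 9.31, 9.26, 9.71 and 8.48 in vehicle. Treated animals 1 and 2 lay inside the vehicle range, and the array in doubt far below it. The difference was -0.999 ± 0.41 with that array (adjusted p = 0.0896) and -0.12 ± 0.29 without it (adjusted p = 0.805). In MA/MyJ (0.14 ± 0.38) and SM/J (0.15 ± 0.38) treated and vehicle animals overlapped.

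**Figure D3:**
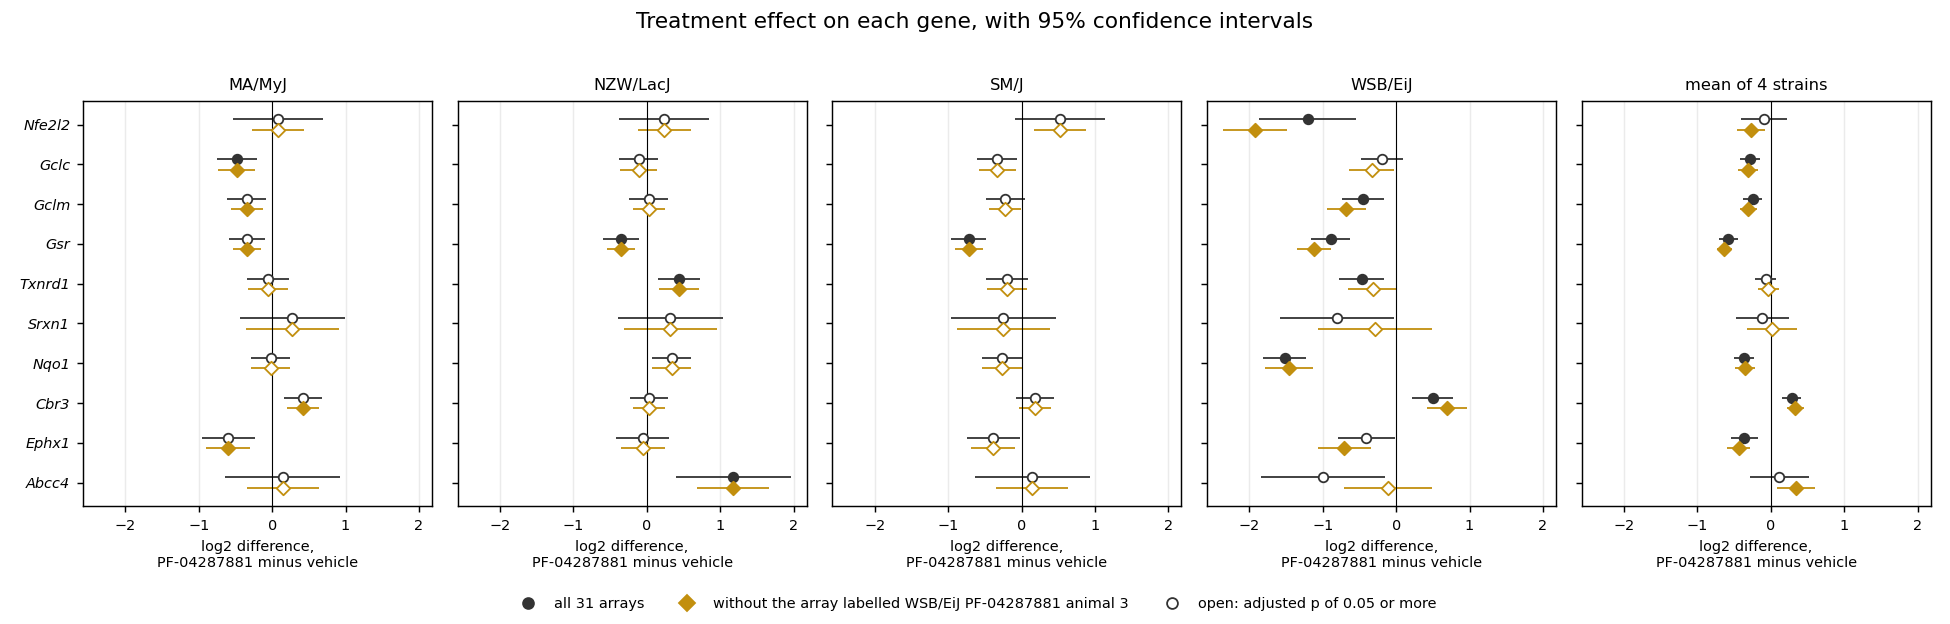
PF-04287881 minus vehicle in log2 units with 95% intervals for the 10 genes, in each strain and averaged over strains, with all arrays (circles) and without the array labelled WSB/EiJ treated animal 3 (diamonds); filled symbols passed the test. Gsr lay below 0 in every panel, Nqo1 in WSB/EiJ lay at -1.52, and Abcc4 in NZW/LacJ at 1.18.

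Counted over the members, WSB/EiJ had the most calls. In WSB/EiJ 5 of the 10 genes fell (Nfe2l2, Gclm, Gsr, Txnrd1 and Nqo1), where 12.4% of all tested genes fell. These counts take the brightest probe set of a gene, and the other probe set of Nfe2l2 rose there. Cbr3 alone rose, where 6.91% rose. In NZW/LacJ, Txnrd1 and Abcc4 rose and Gsr fell, against a background of 15.1% higher and 6.4% lower, but the 2 dimmer probe sets of Txnrd1 fell there. In MA/MyJ the 1 member called was Gclc (lower, background 0.978% lower and 3.17% higher). In SM/J it was Gsr (lower, background 0.993% lower and 1.6% higher). The median difference of the members was -0.64 in WSB/EiJ, where that of all genes was 0.02, against -0.23 in SM/J, -0.04 in MA/MyJ and 0.13 in NZW/LacJ, where that of all genes lay between -0.00 and 0.02.

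Averaged over the 4 strains, 5 members fell (Gsr, Nqo1, Ephx1, Gclc and Gclm) and Cbr3 rose, where 8.92% of all genes fell and 13.3% rose. The average of Nqo1, -0.37 ± 0.07, rested on WSB/EiJ. Nfe2l2 (-0.09 ± 0.15), Txnrd1 (-0.07 ± 0.07), Srxn1 (-0.11 ± 0.18) and Abcc4 (0.12 ± 0.19) were not called. Without the array in doubt, 6 fell and 2 rose, the additions being Nfe2l2 (-0.27 ± 0.09) and Abcc4 (0.34 ± 0.13), against a background of 14.2% and 18.4%. These averages take the brightest probe set of a gene. With the mean over all probe sets and all arrays kept, the average of Nfe2l2 was 0.11, and that of Txnrd1 was -0.44 and passed.

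Leaving out the array in doubt moved the single strains as well. In WSB/EiJ the falls were then those of Nfe2l2 (brighter probe set), Gclm, Gsr, Nqo1 and Ephx1, with a background of 18.6%. Cbr3 rose, with a background of 13.8%. MA/MyJ had 4 members lower (Gclc, Gclm, Gsr and Ephx1, background 2.09%) and Cbr3 higher (background 5.21%). NZW/LacJ and SM/J had the same members called, with backgrounds of 18.3% higher and 8.35% lower in NZW/LacJ and 2.66% higher and 1.99% lower in SM/J.

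The strains differed in the response of 5 members by the F test, Nqo1, Txnrd1, Nfe2l2, Abcc4 and Gsr, where 19.4% of all genes differed. The difference of Txnrd1 rests on its brightest probe set: with the mean over its 3 probe sets the F test gave an adjusted p of 0.639. The call of Abcc4 (adjusted p = 0.0395) was lost without any 1 of 10 animals and that of Gsr (adjusted p = 0.0399) without any 1 of 21. That of Nfe2l2 was lost without any 1 of 3 animals (F test, adjusted p of 0.0569 to 0.126). In WSB/EiJ the effect was lower than the mean of the other strains for the same 5 members (background 13.9%), among them Nfe2l2 at -1.49 ± 0.37 and Gsr at -0.42 ± 0.14. The call of Gsr there was lost without any 1 of 15 animals (-0.42 to -0.28, adjusted p up to 0.228), with no filter and with the animal number as a block. The calls there of Txnrd1 and Abcc4 were lost without any 1 of 4 and any 1 of 3 animals. That of Nfe2l2 was lost without 1 animal. In NZW/LacJ the effect was higher than in the others for Nqo1, Abcc4 (1.41 ± 0.44) and Txnrd1 (0.67 ± 0.16), with a background of 11.3%. That call of Abcc4 was lost without any 1 of 4 animals. By the coding of Kupffer cell vacuolation, the 2 coded strains were averaged and set against the average of SM/J and WSB/EiJ. The coded side was higher for Nqo1 (1.05 ± 0.13), Txnrd1 (0.52 ± 0.14) and Gsr (0.46 ± 0.12), with a background of 12.5%. For Nqo1 and Txnrd1 the single effects of MA/MyJ and SM/J lay close together, and none of them was called. The gap for Nqo1 came mostly from the fall in WSB/EiJ. That for Txnrd1 came mostly from the rise in NZW/LacJ and the fall in WSB/EiJ. Gsr fell by less in both coded strains than in both others. With the mean over its probe sets Txnrd1 passed in none of these contrasts, at -0.17 for WSB/EiJ, 0.17 for NZW/LacJ and 0.12 for the vacuolation coding. Without the array in doubt 7 members differed by the F test, the additions being Gclm and Cbr3, with a background of 32.4%. The WSB/EiJ effect was then lower for Nfe2l2 (-2.21), Nqo1, Gsr (-0.64) and Gclm (-0.50) with a background of 19.6%, and higher for Cbr3 (0.48) with a background of 11.4%, while Txnrd1 (-0.38) and Abcc4 (-0.60) no longer passed. The NZW/LacJ effect was higher for 7 members with a background of 15.6%, and lower for Cbr3 (-0.41) with a background of 6.13%. By the vacuolation coding Nfe2l2 joined the 3 others (0.86 ± 0.18), with a background of 18%. For Nfe2l2 the SM/J effect lay above those of MA/MyJ and NZW/LacJ. The gap came from the fall in WSB/EiJ alone, read there from 2 treated animals. With 2 strains on either side of that coding, it cannot be told apart from any other difference between these strains. The values of Nfe2l2 in all these contrasts are those of its brighter probe set, and the dimmer one rose in WSB/EiJ and fell in NZW/LacJ. With the mean over both probe sets and all arrays kept, the WSB/EiJ contrast of Nfe2l2 was 0.38.

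In vehicle livers most members differed between strains, as did most of all tested genes. Among vehicle livers 7 of the 10 genes differed by the F test over strains, where 56.5% of all genes did, and 22 of 60 pairs of strains passed (36.7%), where the background was 26.9%. Without the array in doubt, which moves the pooled spread alone here, 8 genes (background 63%) and 28 pairs (background 32.4%) passed. Pairs said below to pass or miss are those of the fit with all arrays. Strain differences in the sequence under a probe can also move such a level, and their part was not tested.

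WSB/EiJ vehicle livers stood out for Nqo1 and Abcc4. Nqo1 averaged 9.34 ± 0.21 in WSB/EiJ (SD, n = 4), above SM/J at 7.96 ± 0.18, NZW/LacJ at 7.86 ± 0.11 and MA/MyJ at 7.66 ± 0.10. The other 3 strains did not differ beyond their spread, and each lay below WSB/EiJ, from -1.69 for MA/MyJ minus WSB/EiJ (limma, adjusted p = 4.78e-10) to -1.38 for SM/J minus WSB/EiJ. Abcc4 averaged 9.19 ± 0.52 in WSB/EiJ, then 7.24 ± 0.48 in SM/J, 6.41 ± 0.13 in MA/MyJ and 6.26 ± 0.31 in NZW/LacJ. With all arrays kept, the other 3 were again not told apart by the test, with differences from WSB/EiJ of -2.93 (NZW/LacJ) to -1.96 (SM/J). The array in doubt widened the spread of Abcc4, whose SD in treated WSB/EiJ was 1.55 with it and 0.36 without it. That these 3 were not told apart is therefore limited to the fit with all arrays.

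The brightest probe sets of both thioredoxin genes were lowest in NZW/LacJ vehicle. Txnrd1 averaged 12.07 in WSB/EiJ, 11.75 in SM/J, 11.65 in MA/MyJ and 11.17 in NZW/LacJ. The neighbours WSB/EiJ and SM/J, and SM/J and MA/MyJ, did not pass, and NZW/LacJ lay below each of the others. Srxn1 averaged 10.88 in WSB/EiJ, 10.25 in SM/J, 9.88 in MA/MyJ and 9.02 in NZW/LacJ, and no neighbours in that order passed the test. Other probe sets gave other orders: Txnrd1 1424487_x_at averaged 8.20 in NZW/LacJ against 8.09 to 8.17 in the other strains, and Srxn1 1419942_at averaged 8.16 in NZW/LacJ, 8.24 in WSB/EiJ, 8.11 in SM/J and 8.07 in MA/MyJ. With the mean over its probe sets, Txnrd1 missed the F test over vehicle strains (adjusted p = 0.0524).

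For the glutathione genes the order changed with the gene. Gclc was highest in MA/MyJ, at 12.61 ± 0.10, and the others lay at 12.19 in WSB/EiJ, 12.11 in NZW/LacJ and 12.07 in SM/J with no pair among these 3 passing. Gclm was lowest in SM/J, at 11.67 ± 0.07, against 12.28 in WSB/EiJ, 12.27 in MA/MyJ and 12.21 in NZW/LacJ. Gsr ran from 11.43 in SM/J through 11.20 in WSB/EiJ and 11.16 in MA/MyJ to 10.89 in NZW/LacJ, with NZW/LacJ below SM/J and WSB/EiJ by the test, and no other pair passing. The second probe sets spaced some strains otherwise. Gsr 1421817_at averaged 10.81 in WSB/EiJ, 10.80 in SM/J, 10.52 in MA/MyJ and 10.33 in NZW/LacJ. Gclc 1424296_at averaged 12.60 in MA/MyJ, 12.33 in WSB/EiJ, 12.12 in SM/J and 11.95 in NZW/LacJ. Gclm 1439050_at was also lowest in SM/J, at 10.48.

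The brighter Nfe2l2 probe set, Cbr3 and Ephx1 had few or no calls among vehicle livers. The brighter Nfe2l2 probe set lay between 10.61 in SM/J and 10.92 in NZW/LacJ, and no pair passed. The dimmer Nfe2l2 probe set, by contrast, was at 10.05 in NZW/LacJ, 8.82 in MA/MyJ, 8.10 in SM/J and 7.96 in WSB/EiJ (F test, adjusted p = 3.32e-05). Cbr3 lay between 6.25 and 6.34. Ephx1 ran from 13.29 in MA/MyJ to 12.79 in WSB/EiJ, the 1 pair that passed (0.50, adjusted p = 0.0331).

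The rest of the pathway was read from 57 further genes, of which 50 were on the array and 48 were tested. Of these, 8 rose and 1 fell in NZW/LacJ, or 16.7% and 2.08%, where 15.1% and 6.4% of all genes did. In WSB/EiJ 3 rose and 9 fell, or 6.25% and 18.8%, where 6.91% and 12.4% of all genes did. In SM/J 1 rose and 2 fell, or 2.08% and 4.17%, beside 1.6% and 0.993% of all genes. In MA/MyJ 2 rose and 2 fell, or 4.17% each, beside 3.17% and 0.978%. Without the array in doubt the counts were 12 and 2 in NZW/LacJ, or 25% and 4.17%, beside 18.3% and 8.35% of all genes. They were 7 and 15 in WSB/EiJ, or 14.58% and 31.25%, beside 13.8% and 18.6%. In SM/J they were 2 and 4, or 4.17% and 8.33%, beside 2.66% and 1.99%. In MA/MyJ they were 3 and 3, or 6.25% each, beside 5.21% and 2.09%. Averaged over the strains 8 rose and 4 fell, or 16.7% and 8.33% beside 13.3% and 8.92% of all genes, and the median of the 48 was 0.00328.

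**Figure D4:**
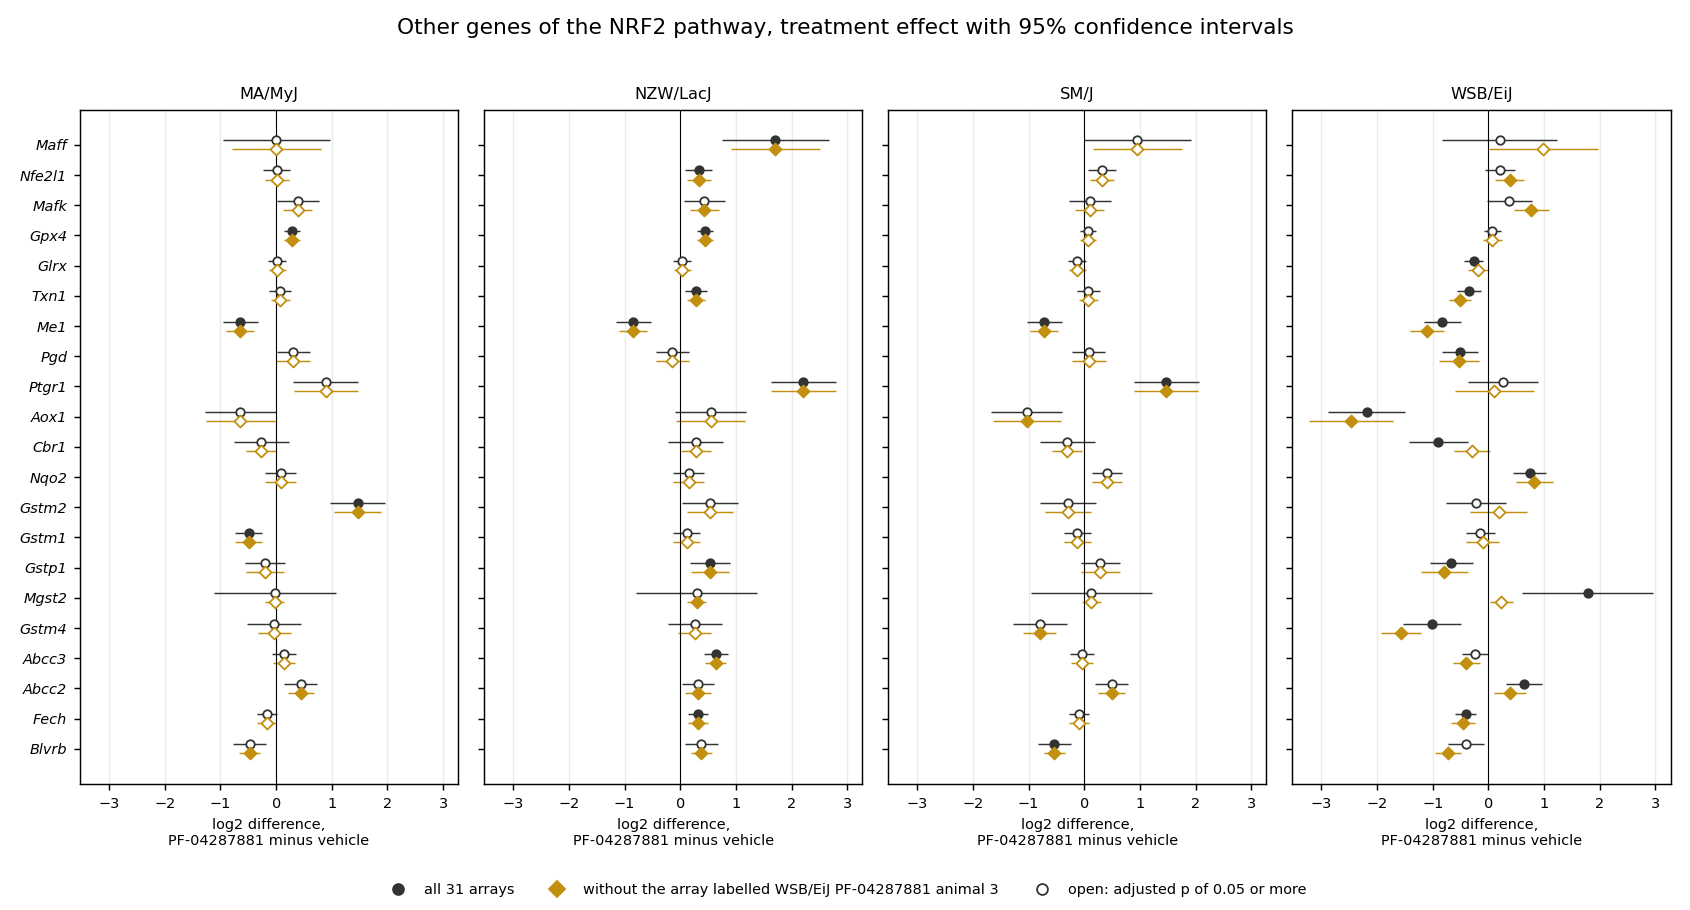
PF-04287881 minus vehicle in log2 units with 95% intervals for the 21 further pathway genes that the text names, in each strain, with all arrays (circles) and without the array in doubt (diamonds); filled symbols passed the test. Me1 lay below 0 in all 4 strains, Ptgr1 at 2.21 in NZW/LacJ and Aox1 at -2.19 in WSB/EiJ.

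Among the NADPH-producing enzymes, 1 gene fell in all 4 strains. Me1, the cytosolic malic enzyme, fell in every strain, with differences of -0.84 ± 0.15 in NZW/LacJ, -0.83 ± 0.16 in WSB/EiJ, -0.72 ± 0.15 in SM/J and -0.65 ± 0.15 in MA/MyJ. Each passed, and the average was -0.76 ± 0.08 (limma, adjusted p = 1.76e-07). Phosphogluconate dehydrogenase (Pgd) fell in WSB/EiJ (-0.51 ± 0.16).

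The enzymes of quinones, carbonyls and aldehydes went both ways. Ptgr1, a reductase of prostaglandins and reactive alkenals, rose by 2.21 ± 0.28 in NZW/LacJ (adjusted p = 4.42e-06) and by 1.47 ± 0.28 in SM/J. It was at 0.89 ± 0.28 in MA/MyJ (adjusted p = 0.0709) and 0.25 ± 0.31 in WSB/EiJ. Aldehyde oxidase Aox1 fell in WSB/EiJ (-2.19 ± 0.34, adjusted p = 6.56e-05), and Nqo2, a relative of Nqo1, rose there (0.74 ± 0.14). Carbonyl reductase Cbr1 fell in WSB/EiJ with all arrays (-0.90 ± 0.26) but not without the array in doubt (-0.30 ± 0.16, adjusted p = 0.162).

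Conjugating enzymes and exporters changed by strain. The glutathione transferase Gstm2 rose in MA/MyJ (1.46 ± 0.24, adjusted p = 5.25e-04) while Gstm1 fell there (-0.49 ± 0.12), and Gstm4 fell in WSB/EiJ (-1.02 ± 0.26). These transferases are close paralogs, so a probe set may read more than one of them. Gstp1 rose in NZW/LacJ (0.54 ± 0.17) and fell in WSB/EiJ (-0.66 ± 0.19). The microsomal transferase Mgst2 rose in WSB/EiJ with all arrays (1.78 ± 0.57) and was at 0.23 ± 0.10 without the array in doubt (adjusted p = 0.0824). Of the exporters, Abcc3 rose in NZW/LacJ (0.64 ± 0.11, adjusted p = 9.73e-05), and Abcc2 rose in WSB/EiJ (0.64 ± 0.16) and on average (0.47 ± 0.07).

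Small MAF genes, which encode the partners of NRF2 on DNA, and genes of peroxide and heme metabolism also held calls. Maff rose in NZW/LacJ (1.70 ± 0.47, adjusted p = 0.00985), and on average Maff (0.71 ± 0.24), Mafk (0.32 ± 0.09) and the related factor Nfe2l1 (0.22 ± 0.06) rose. The lipid peroxidase Gpx4 rose in NZW/LacJ (0.45 ± 0.07) and MA/MyJ (0.29 ± 0.07). Thioredoxin, Txn1, rose in NZW/LacJ (0.28 ± 0.10) and fell in WSB/EiJ (-0.35 ± 0.10), and ferrochelatase, Fech, did likewise (0.32 ± 0.09 and -0.41 ± 0.09). Glutaredoxin (Glrx) fell in WSB/EiJ with all arrays (-0.27 ± 0.09) but not without the array in doubt (adjusted p = 0.128), and biliverdin reductase (Blvrb) fell in SM/J (-0.54 ± 0.14).

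Across the 30 arrays without the one in doubt, the genes whose level ran most closely with 3 of the members were listed by Pearson correlation, as a description. These arrays share 8 groups, so strain and treatment enter each value. For Nqo1 they were Plppr1 (0.90), 1810010H24Rik (0.89) and Saal1 (0.85). For Gsr they were Psmb3 (0.92), Psma4 (0.91) and Psmd1 (0.87), and for Abcc4 they were Bex4 (0.92), Slc29a1 (0.91) and Adssl1 (0.89).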

How the data were processed

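RNA from 31 mouse livers was measured on 1-colour Affymetrix arrays. The deposited values are log2 intensities per probe set, which the authors made with Affymetrix Power Tools and RMA, per the submitters' processing notes; the sources used here give no version and no genome build. Of 44721 probe sets, 34728 carried 1 gene symbol, 872 several and 9121 none, and symbols of 34525 were looked up by Entrez number in GRCm38.p6 names. Array medians lay between 6.43 and 6.54, no 2 arrays held identical values, and the number of arrays limits precision. Groups were taken from the labels, which do not say whether arrays were scanned in batches.

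A linear model with 8 group means was fitted with limma 3.58.1 in R 4.3.3 over 12890 genes, and over 24899 probe sets for values of single probe sets. Tests were two-sided, with Benjamini-Hochberg adjustment. Figures used Python 3.11.15, pandas 2.3.3 and matplotlib 3.10.9. The F test asks whether the effect of the drug is equal in all strains. The members and lists were chosen with earlier results of these data known, so their counts are descriptions. Every member is named, and other pathway genes were named as the 3 largest average effects past the threshold in each list and the 2 largest in each strain. Like genes were the 3 with the highest correlation.

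On simulated data with 12890 genes, a change of 1 was recovered for 95 to 97 of 100 genes in single strains, 100 in the average and 86 by the F test. A change of 0.5 was recovered for 55 to 68, 95 and 31. The simulated spread of each gene was that of the 30 arrays without the one in doubt. Recovery can therefore be lower in the fits that keep that array. Same-numbered animals did not deviate together (15 pairs, correlations from -0.52 to 0.41, 4 over 0.1), so numbers were not used as pairs. Alternatives were no filter or a stricter one of 8 arrays, the mean over probe sets, arrays shifted to 1 median, another prior, animal number as a block, each strain alone, and leaving out animals.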

Additional observations from a re-analysis of the deposited data

Results flagged for a closer look

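The response of 5 members differed between the 4 strains by an F test across strains in limma, where 19.4% of all genes differed. The adjusted p was 2.01e-06 for Nqo1, 0.0124 for Txnrd1, 0.0230 for Nfe2l2, 0.0395 for Abcc4 and 0.0399 for Gsr. For Txnrd1 it was 0.639 with the mean over its 3 probe sets. The call of Abcc4 was lost without any 1 of 10 animals, that of Gsr without any 1 of 21 and that of Nfe2l2 without any 1 of 3. Nqo1 was called lower in WSB/EiJ and Abcc4 higher in NZW/LacJ, and Gsr lay below its vehicle animals in all 4 strains by amounts that differed. For the dimmer Nfe2l2 probe set, 1457117_at, the adjusted p was 3.25e-05, with a rise in WSB/EiJ and a fall in NZW/LacJ.

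Some single animals lay far from the other 3 of their group. Gsr was at 10.71 in MA/MyJ treated animal 4, below 10.85 in the nearest other animal, and at 10.99 in NZW/LacJ vehicle animal 4, above 10.86. Nqo1 was at 7.70 in SM/J vehicle animal 2, below 8.03. Ephx1 was at 12.2 in WSB/EiJ vehicle animal 3, below 12.9. The dimmer Nfe2l2 probe set was at 8.10 in MA/MyJ vehicle animal 4, below 8.96. Of 77 groups of 4 animals tested, 5 held such an animal, and chance gives about 1 in 20.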

How the results depend on the processing

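Leaving out 1 animal at a time gave ranges of called genes of 279 to 941 in MA/MyJ, 103 to 600 in SM/J, 1282 to 4180 in WSB/EiJ, 1729 to 4006 for WSB/EiJ minus the other strains, 1824 to 3390 for the vacuolation contrast and 2115 to 4180 by the F test. Among the members the ranges were 0 to 5 in MA/MyJ, 0 to 3 in NZW/LacJ, 3 to 8 in WSB/EiJ, 2 to 6 for WSB/EiJ minus the others, 2 to 8 for NZW/LacJ minus the others, 3 to 5 for the vacuolation contrast and 2 to 7 by the F test. Values near 0 changed sign, with ranges in MA/MyJ of -0.025 to 0.18 for Nfe2l2, -0.048 to 0.011 for Nqo1 and -0.13 to 0.012 for Txnrd1, and in SM/J of -0.084 to 0.36 for Abcc4. In NZW/LacJ they were -0.028 to 0.058 for Gclm, -0.049 to 0.075 for Cbr3, -0.16 to 0.058 for Ephx1 and -0.22 to 0.0063 for Gclc. The strain averages were -0.27 to 0.042 for Nfe2l2, -0.025 to 0.34 for Abcc4 and -0.20 to 0.015 for Srxn1.

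With the mean over all probe sets of a gene, 4 members were called in MA/MyJ, 2 in SM/J and 3 for WSB/EiJ minus the others, and signs turned for Nfe2l2 in NZW/LacJ (-0.72), in WSB/EiJ (0.40), on average (0.11) and for WSB/EiJ minus the others (0.38), and in NZW/LacJ for Txnrd1 (-0.32) and Srxn1 (-0.050). That alternative mixes the probe sets that disagree. With arrays shifted to 1 median, 2 members were called in MA/MyJ and Nqo1 there was at 0.001395; a robust prior with a trend also gave 2. Without WSB/EiJ treated animal 3 and vehicle animal 4 together, called genes numbered 1180 in MA/MyJ, 759 in SM/J, 3993 in WSB/EiJ, 4306 on average, 2980 for NZW/LacJ minus the others, 3464 for the vacuolation contrast and 4275 by the F test, with 5 members in MA/MyJ, 8 for NZW/LacJ minus the others and 6 for the vacuolation contrast. With the animal number as a replicate block, 3 members differed by the F test. For the mean over probe sets, shifted medians, the robust prior and the block, the share of all genes called is not given here. Those member counts are therefore not set against a background. Fitting a strain alone called 1063 genes and 4 members in MA/MyJ, and 4 genes and 1 member (Nqo1) in WSB/EiJ. Apart from the mixing of probe sets, the cause of these shifts was not tested. With no filter Gsr missed the F test (adjusted p = 0.0511), and a filter of 8 arrays left all 81 results as they were.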
